A study of Mus musculus with 30 samples.

Results

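The account covers male (XY) primordial germ cells in which Rnf2 is deleted, followed from embryonic day E11.5 to E12.5. Its members are the 6 arrays labelled Ring1+;Rnf2delta and male, 3 at E11.5 and 3 at E12.5, of 30 arrays in the series. They were chosen by their labels alone. The study profiled germ cells of both sexes on Affymetrix arrays around the days of sexual differentiation, to ask how Polycomb repressive complex 1 (PRC1) sets its timing in females. Cells were sorted by the GFP of an Oct4(deltaPE)-GFP transgene, a reporter active in germ cells that every group carried, and the RNA of 500 cells was amplified for each array. Ring1+;Rnf2+ embryos served as controls, at E11.5, E12.5 and E13.5, and all embryos were on a mixed 129/Sv and C57BL6J background. Ring1, the paralogue of Rnf2, was kept in both genotypes, and the labels name neither the Cre driver nor the part of Rnf2 removed. No Rnf2delta array at E13.5 is in the series.

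Rnf2 (RING1B) and Ring1 (RING1A) are the catalytic subunits of PRC1, a ubiquitin ligase that marks histone H2A at CpG-rich promoters and holds developmental genes silent. Germ cells reach the gonad in a state close to pluripotency and then switch on a germline programme. After that, XX germ cells answer retinoic acid by entering meiosis, whereas XY germ cells, shielded from it in the testis, stop dividing and begin the spermatogenic path under Nodal and Nanos2.

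Between E11.5 and E12.5 few genes passed the test for a change in the Rnf2delta XY germ cells. Among the rises were the epiblast and brain transcription factor Otx2, the germ cell gene Tex19.2, the p53 target Pmaip1 and the small RNA gene Rnu3a. Among the falls were the imprinted gene Phlda2, the splicing gene Snrnp70 and the germ cell surface gene Ifitm3. In 21 alternative settings Ifitm3 lost its call in 11, Pmaip1 in 6, Phlda2 in 4, and Otx2 and Tex19.2 in 2 each. Rnu3a and Snrnp70 kept theirs in all 21. Of 15180 genes tested, 83 passed the threshold (0.547%, adjusted p under 0.05 by limma with Benjamini-Hochberg adjustment over all genes tested). Of these, 23 rose (0.152%) and 60 fell (0.395%). The count ran from 13 to 443 across alternative settings, and 1781 genes (11.7%) had an unadjusted p under 0.05 by limma. A change of more than 1 log2 unit was seen in 23 of the 83, 7 upward and 16 downward, and the smallest called changes were 0.52 and -0.43. Quantile normalization gave 38 up and 47 down, so 44.7% rather than 27.7% of the calls were rises. The arrays of one stage all lay above those of the other for 82 of the 83. Over all genes tested, 1007 (6.63%) had all E12.5 arrays above all E11.5 arrays and 1605 (10.6%) had them below. The exception among the calls was Rhox6, an X-linked homeobox gene, at 9.64, 9.25 and 8.34 at E11.5 and 8.04, 7.93 and 8.60 at E12.5. It was named after its values were seen. The largest rises and falls described below were picked among genes whose arrays do not overlap. Their lack of overlap is therefore no added support.

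All levels are deposited log2 signals, given in the order of replicates 1, 2 and 3, and changes are E12.5 minus E11.5 with their standard error (SE). The labels do not say whether replicates came from separate embryos, and the p-values therefore rest on differences among arrays that may be technical in part. In sorted bulk samples, fewer cells of a type and less RNA per cell cannot be told apart.

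The 12 germ cell markers had a mean signal of 7.46 to 7.67 on the 6 arrays, against 2.56 to 2.95 for the 16 supporting cell markers. Y-linked genes lay between 4.10 and 4.50, and between 2.19 and 2.49 on female arrays. Rnf2 signal was 4.01, 4.11 and 4.57 at E11.5 and 4.09, 4.45 and 4.46 at E12.5 in Rnf2delta males. Controls had 4.79, 4.13 and 4.70 and then 5.22, 5.68 and 5.21. The control rise of 0.83 passed the test (adjusted p = 0.014 by limma) and the Rnf2delta change of 0.11 did not (adjusted p = 0.90). The difference between them was -0.73 (95% interval -1.26 to -0.19), with an adjusted p of 1. Because the removed part is not labelled, the probe set need not report the deletion. Ring1 changed by -0.04.

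A pair of the 6 arrays stood apart. E12.5 replicate 3 was high in red cell genes, with the embryonic globin Hbb-y at 9.71 against 1.56 to 3.22 on all other arrays of the series, and a mean over the erythroid markers of 3.98 against 2.11 to 2.63. E11.5 replicate 3 correlated across genes as well with the E12.5 arrays (0.987) as with its own group (0.988). Without E11.5 replicate 3 the calls numbered 146, without E12.5 replicate 3 they numbered 97 (50 up, 47 down), and without both 174 (90 up, 84 down), of which 61 were among the 83. Leaving out E11.5 replicate 1 left 17, E11.5 replicate 2 or E12.5 replicate 1 left 44, and E12.5 replicate 2 left 32. Of the 83, 12 passed without any 1 of the 6 arrays: Rnu3a, Otx2, Ndufa8, Trappc13, Lgalsl, Mlec, Grn, Mfsd13a, ND3, Cks2, Snrnp70 and Snord38a. The arrays also split by 13 bright probe sets that name no gene: all E11.5 arrays lay at 9.96 to 10.22, E12.5 replicates 1 and 2 at 10.89 and 10.93, and replicate 3 at 10.28. With this split as a block the calls numbered 104, 40 of them among the 83. Across the series all E11.5 arrays fell in the lower set. Of the later arrays only E12.5 male replicate 3 of each genotype did. The block therefore rests on those arrays, among them the array high in red cell genes, and otherwise cannot be told apart from stage.

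The upstream sequences of 4 called genes are shown because PRC1 acts at CpG-rich promoters and these range from few to many CG pairs. Each is the stretch of 250 bases before the outermost RefSeq start on GRCm38.p6. It is written 5′ to 3′ on the gene's strand, with every CG in capitals. Otx2 has 4 listed starts, of which the outermost alone was read, and Tex19.2, Ndufa8 and Phlda2 have 1 each. Otx2 (chr14:48667645-48667894, minus strand) holds 6 CG, Tex19.2 (chr11:121118678-121118927, minus) 2, Ndufa8 (chr2:36049339-36049588, minus) 17 and Phlda2 (chr7:143502525-143502774, minus) 21.
Otx2: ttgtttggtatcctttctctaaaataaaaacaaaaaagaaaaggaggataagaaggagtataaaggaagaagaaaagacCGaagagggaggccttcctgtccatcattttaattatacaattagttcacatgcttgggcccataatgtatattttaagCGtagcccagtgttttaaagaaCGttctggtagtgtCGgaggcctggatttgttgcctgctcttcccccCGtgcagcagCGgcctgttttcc
Tex19.2: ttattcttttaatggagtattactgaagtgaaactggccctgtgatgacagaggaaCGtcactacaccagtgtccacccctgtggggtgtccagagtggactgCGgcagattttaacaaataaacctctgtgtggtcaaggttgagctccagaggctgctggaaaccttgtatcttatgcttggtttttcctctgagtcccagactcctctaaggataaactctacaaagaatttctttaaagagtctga
Ndufa8: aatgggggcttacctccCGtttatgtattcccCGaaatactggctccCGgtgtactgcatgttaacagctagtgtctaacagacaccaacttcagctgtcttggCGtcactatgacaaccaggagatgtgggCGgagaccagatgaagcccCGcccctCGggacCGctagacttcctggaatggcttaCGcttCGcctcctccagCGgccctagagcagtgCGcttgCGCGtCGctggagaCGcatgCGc
Phlda2: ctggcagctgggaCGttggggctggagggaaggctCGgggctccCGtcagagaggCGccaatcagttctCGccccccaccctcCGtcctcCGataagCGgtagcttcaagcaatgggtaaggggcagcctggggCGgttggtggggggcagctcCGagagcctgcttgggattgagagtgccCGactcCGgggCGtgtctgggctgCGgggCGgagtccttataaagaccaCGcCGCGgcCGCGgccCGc

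The RefSeq table held upstream sequences for 17 of the 23 genes that rose and 39 of the 60 that fell. The median number of CG was 15 in the risers, 17 in the fallers and 14 over the 12002 tested genes in the table. Both strands were searched for CACGTG, the E-box that MAX and MGA of a PRC1 variant bind. It stood in 0 of the 17 and in 8 of the 39 (20.5%), against 8.06% of the promoters of tested genes and 6.04% of all 27025. The E2F motif GGCGGGA was in 2 of the 17 (11.8%) and 8 of the 39 (20.5%), against 16.5% of tested genes and 9.79% of all. CCAAT was in 6 (35.3%) and 17 (43.6%), against 35.6% and 34.5%, and 1 copy lay 193 to 189 bases before the Phlda2 start. The FOXH1 motif AATNCACA, for a Nodal effector, was in 0 of either, against 1.98% and 3.22%. Of the 4 sequences printed above, Phlda2 alone held any of these motifs, the CCAAT copy given.

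Otx2 encodes a homeodomain factor of the epiblast and forebrain that is a Nodal target. It stood at 2.79, 3.73 and 4.07 at E11.5 and at 4.85, 5.39 and 4.53 at E12.5. The stages did not overlap, and the rise of 1.40 ± 0.23 (SE), 2.63-fold, had an adjusted p of 0.0020 by limma. Controls were at 3.35, 3.31 and 3.12 and then at 3.93, 3.48 and 4.06, a change of 0.56 with an adjusted p of 0.21. At E13.5 the control males were at 4.98, 5.52 and 4.79, a range that overlaps that of the E12.5 Rnf2delta arrays. The difference between the stage changes of the genotypes was 0.84 (95% interval 0.17 to 1.5, adjusted p = 1 by limma). The call was lost in 2 of 21 alternatives.

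Tex19.2, a germ cell gene of the Tex19 family that restrains transposons, read 3.49, 3.76 and 4.21 at E11.5 and 4.80, 4.83 and 4.85 at E12.5. All E12.5 arrays lay above all E11.5 arrays, with a rise of 1.01 ± 0.19 (SE) and an adjusted p of 0.0079 by limma. In controls the arrays overlapped, from 3.63, 3.67 and 3.63 to 3.50, 3.92 and 3.73, a change of 0.07 (adjusted p = 0.92). Control males reached 4.66, 5.04 and 4.88 at E13.5. The difference between genotypes was 0.93 (95% interval 0.38 to 1.49), among the 5 with the smallest p, and its adjusted p was 1. Without E11.5 replicate 1, where the rise was 0.84, the adjusted p was 0.13.

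Pmaip1 encodes NOXA, a BH3-only protein that promotes apoptosis. It was at 3.88, 4.85 and 4.81 and then at 5.79, 6.05 and 5.4, with no overlap. The rise of 1.23 ± 0.28 had an adjusted p of 0.034 by limma, and controls rose by 1.86 (adjusted p = 0.00052). It was the 1 call among 16 measured genes of apoptosis and p53 response, where 0.547% of all genes tested were called. The median change of the 16 was -0.0064. The call was lost without E11.5 replicate 1 (change 0.91), E12.5 replicate 1 (1.21) or E12.5 replicate 2 (1.08).

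**Figure D1:**
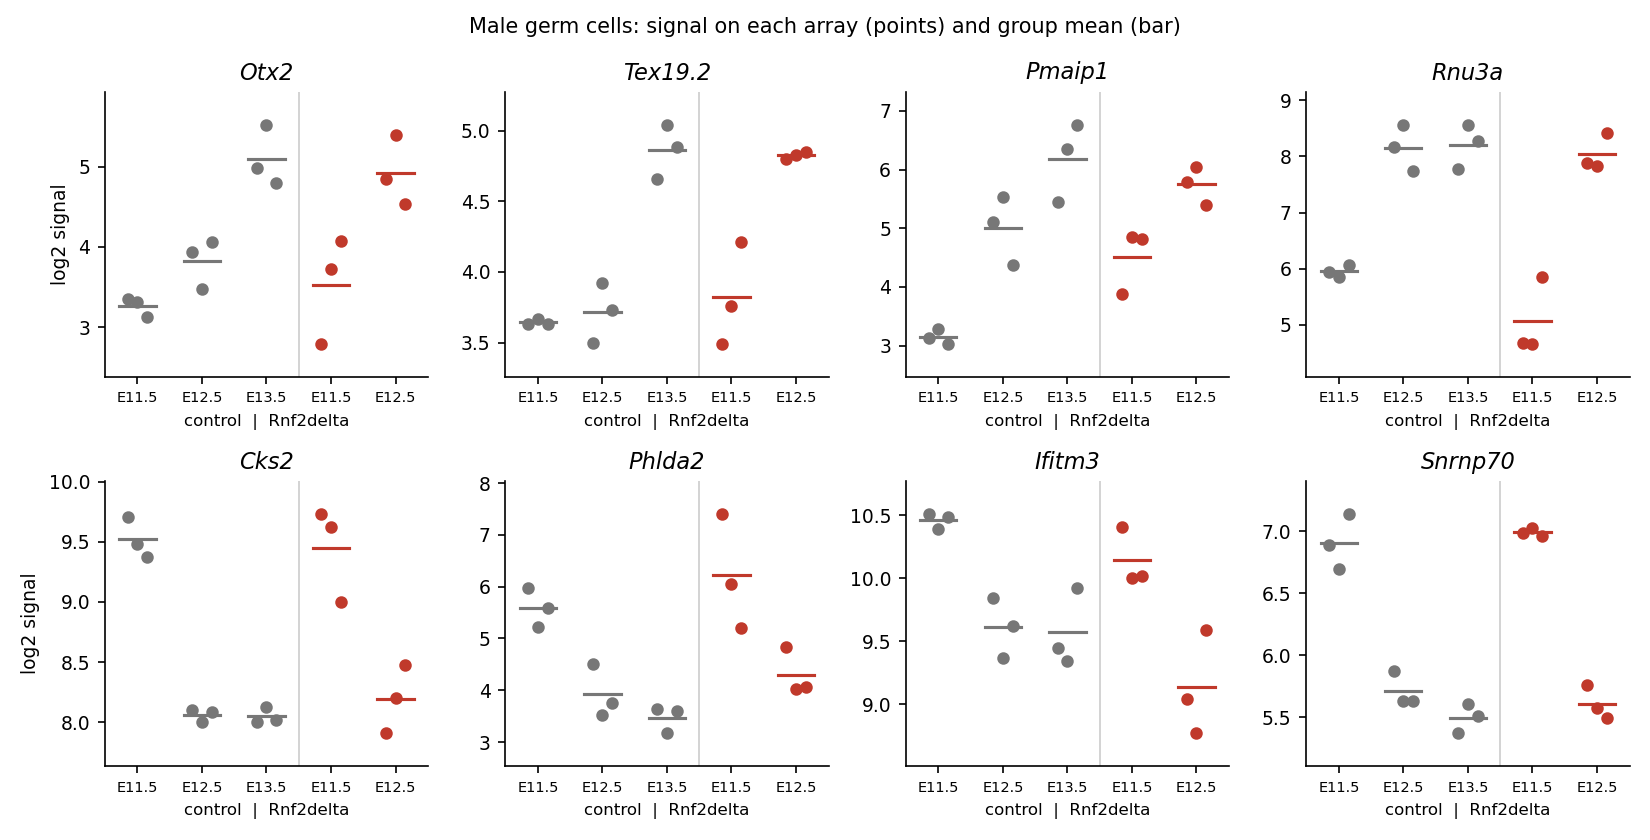
Signal of 8 genes in male germ cells (vertical axis, log2 signal, scaled to each gene). Points are single arrays in the order of replicates 1 to 3, bars are means of 3 arrays, grey is control at E11.5, E12.5 and E13.5, and red is Rnf2delta at E11.5 and E12.5. Tex19.2 at E12.5 lies at 4.80 to 4.85 in Rnf2delta and at 3.50 to 3.92 in controls, and the 2 genotypes fall together for Snrnp70.

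Small RNA genes held 6 of the 83 calls, from 60 measured: 4 rose and 2 fell, where 0.152% of all genes tested rose and 0.395% fell. Their median change was -0.0451 (-0.0574 to 0.00359 across alternatives) against -0.0133 over all genes tested. Snora and Snord genes lie inside other genes, so their probe sets may also read the host. Rnu3a, the U3 RNA of ribosomal RNA processing, gave the largest rise of the comparison. It went from 4.68, 4.66 and 5.85 to 7.88, 7.82 and 8.41. The stages were more than 1 unit apart on every array, the change was 2.97 ± 0.30 (SE), 7.84-fold, and the adjusted p was 6.1e-07 by limma. It passed in all 21 alternatives. Rny1, a Y RNA of the Ro particle, rose by 1.63 ± 0.30 (adjusted p = 0.0060), and without E11.5 replicate 2 its adjusted p was 0.060. Rnu12, the U12 RNA of the minor spliceosome, rose by 1.26 (adjusted p = 0.0098), and the call was lost without E11.5 replicate 2 (1.22), E12.5 replicate 1 (1.12) or E12.5 replicate 2 (1.25). Snord38a and Snora33, guides for chemical modification of ribosomal RNA, fell by 1.5 and 1.51 (adjusted p = 0.00034 and 0.0048). The Snord38a call held in all 21 alternatives, and that of Snora33 was lost without E11.5 replicate 1 (-1.22).

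Snrnp70 encodes the 70K protein of the U1 particle, which selects splice sites. It was at 6.99, 7.03 and 6.96 at E11.5 and at 5.76, 5.57 and 5.49 at E12.5. The replicates of each stage lay close together and far from the other stage, a fall of -1.39 ± 0.15 (adjusted p = 4.1e-06 by limma, 2.62-fold lower). Controls fell by 1.20 (adjusted p = 7.9e-05). The call held in all 21 alternatives.

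Phlda2, an imprinted gene that limits placental growth, was at 7.40, 6.05 and 5.20 and then at 4.83, 4.02 and 4.06. The E11.5 arrays spread over more than 2 units but stayed above all E12.5 arrays, with a change of -1.92 ± 0.40 (adjusted p = 0.016 by limma). Controls fell by 1.66 (adjusted p = 0.020). The call was lost without E11.5 replicate 1 (-1.33), E12.5 replicate 2 (-1.77) or E12.5 replicate 3 (-1.80). Of 20 measured imprinted genes Phlda2 alone was called, where 0.547% of all genes tested were called. The median change of the 20 was -0.246, with 5 above 0.

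The largest fall was that of Hmgn5, a nucleosome-binding protein, from 5.30, 4.34 and 4.27 to 2.74, 2.02 and 3.05. No arrays overlapped, and the change was -2.03 ± 0.45 (adjusted p = 0.030 by limma). The call was lost without E11.5 replicate 1 (-1.70), E11.5 replicate 2 (-2.18), E12.5 replicate 1 (-2.10) or E12.5 replicate 2 (-1.74). Porcn, the enzyme that adds the lipid WNT proteins need for secretion, went from 6.15, 5.06 and 3.80 to 3.51, 2.79 and 3.02. Its E11.5 values ranged widely, with replicate 3 the lowest, and its fall was 1.90 (adjusted p = 0.0043), or 1.32 without E11.5 replicate 1 (adjusted p = 0.057). Cks2, a small subunit of cyclin-dependent kinases, fell by 1.25 ± 0.18 (adjusted p = 0.00043) on the brightest of its 3 probe sets, from 9.73, 9.62 and 9.0 to 7.91, 8.20 and 8.48. The other two changed by 0.21 and -0.07, and the mean over the 3 did not pass (-0.37), so the Cks2 call belongs to 1 probe set.

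A list of oxidative phosphorylation genes encoded in the nucleus had 71 measured members. Of these, 3 were called higher and 0 lower, against 0.152% and 0.395% of all genes tested. Changes lay above 0 for 40 and below 0 for 31, with a median of 0.0173. The mitochondrially encoded ND3 and COX2, which are not on that list, were both called lower. Ndufa8, a complex I subunit, was at 6.38, 6.33 and 6.59 and then at 7.23, 7.42 and 7.19. The stages did not overlap, and the rise of 0.85 ± 0.13 had an adjusted p of 0.00051 by limma. Uqcrh of complex III rose by 0.62 (adjusted p = 0.010) and Atp5o of ATP synthase by 0.52 (adjusted p = 0.034). Uqcrh was lost without E11.5 replicate 2 (0.57) or E12.5 replicate 2 (0.55). Atp5o was lost in 11 of 21 alternatives, among them the sets without E11.5 replicate 1 (0.43), E11.5 replicate 3 (0.51), E12.5 replicate 1 (0.47) or E12.5 replicate 2 (0.51).

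Germline and pluripotency genes held 1 call in all, where 0.547% of all genes tested were called. At that share a short list would usually hold no call. A list with 0 calls, here or below, was therefore not shown to be unchanged. The germline licensing list had 29 measured genes, of which 25 had a change above 0, with a median of 0.259 (0.183 to 0.584 across alternatives, the highest without both arrays that stand apart), and Tex19.2 alone passed. Among the others, the RNA helicase Ddx4 changed by 0.63 (adjusted p = 0.28), the tudor gene Tdrd1 by 0.57 (0.42 adjusted) and the RNA-binding gene Dazl by 0.27 (0.76 adjusted). Ddx4 read 7.33, 6.86 and 7.57 and then 8.09, 8.02 and 7.54, so the stages overlapped through replicate 3 of each. Of 27 pluripotency genes 0 passed, 4 were above 0 and the median was -0.200, or -0.123 without E11.5 replicate 1. Pou5f1 (OCT4) stayed between 9.15 and 9.53 at both stages and changed by -0.02 ± 0.15, Nanog by -0.33 and Sox2 by -0.20. Lin28a, a let-7 inhibitor, and Dppa3 (Stella), a guard of maternal methylation, came nearest to the threshold, Lin28a at -0.61 (adjusted p = 0.066) and Dppa3 at 0.58 (adjusted p = 0.068), and both passed in 5 of 21 alternatives.

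Of 18 early germ cell genes 15 had a change below 0, with a median of -0.153 (-0.267 with the array split as a block). The test was passed by 1 of them, against 0.547% of all genes tested. This was Ifitm3, an interferon-induced membrane protein also called Fragilis. It went from 10.41, 10 and 10.02 to 9.04, 8.77 and 9.59, without overlap, by 1.01 ± 0.24 (adjusted p = 0.044 by limma). Controls fell by 0.85 (adjusted p = 0.050). The call was lost in 11 of 21 alternatives, among them those without E11.5 replicates 1 (-0.87), 2 (-1.08) or 3 (-1.07) and E12.5 replicates 1 (-0.96) or 2 (-0.83).

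The meiotic list had 0 calls among 36 measured genes, against 0.547% of all genes tested, a share at which 0 is the usual count. Its median was 0.122, with 28 genes above 0. That median was 0.00604 with the array split as a block, 0.0463 without E12.5 replicate 1, 0.191 and 0.214 without replicate 3 of E11.5 or E12.5, and 0.274 without both. Stra8, the retinoic acid target that opens meiosis, was at 2.03, 2.36 and 2.40 and then at 2.31, 2.03 and 2.28, and the stages overlapped fully. The change was -0.05 ± 0.35 (adjusted p = 0.98 by limma). Rec8 and Sycp3, a meiotic cohesin and an axis protein, changed by 0.10 and 0.11. Sycp1, of the synaptonemal complex, changed by 0.95 ± 0.28 without overlap between stages (adjusted p = 0.13) and passed in 3 alternatives.

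Neither the spermatogenic list (10 genes) nor the cell cycle inhibitors (8 genes) held a call, against 0.547% of all genes tested. Nanos2, the factor that commits XY germ cells to spermatogenesis, was at 2.28, 2.39 and 2.69 and then at 2.93, 2.5 and 2.46, and changed by 0.17 (adjusted p = 0.88 by limma). Control males were at 3.71, 5.13 and 5.44 at E13.5. Bnc2 changed by 0.82 ± 0.28 (adjusted p = 0.19). In the Nodal list of 15 genes Otx2 was the 1 call. The ligand Nodal changed by -0.21, its co-receptor Tdgf1 by 0.13 and its inhibitor Lefty1 by 1.05 ± 0.34 (adjusted p = 0.17). Cdkn2a, a classic Polycomb target, changed by 0.06 and the mitotic arrest gene Cdkn1b by -0.51, neither past the test. A stage change does not show differences between genotypes already present at E11.5. There the Rnf2delta and control male means were 4.40 and 3.72 for Cdkn2a, and 5.48 and 4.04 for Cdkn1b, a difference not tested here. Of 31 cell division genes 0 passed, and Mki67 changed by -0.20.

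For Polycomb subunits and usual targets, the calls stand beside a share of 0.547% over all genes tested. At that share lists this short would hold few or no calls. A stage change also cannot show a difference between genotypes that was already present at E11.5. PRC1 subunits had 0 of 28. Of 13 PRC2 subunits the histone chaperone Rbbp7 rose, by 0.69 ± 0.14 (adjusted p = 0.016 by limma), from 7.35, 7.66 and 7.92 to 8.34, 8.55 and 8.11, and its second probe set changed by 0.73. The Rbbp7 call was lost without E11.5 replicate 1 (0.54), E11.5 replicate 2 (0.69), E12.5 replicate 1 (0.68) or E12.5 replicate 2 (0.58). The 25 Hox genes and 55 developmental transcription factors measured held 0 calls, with medians of 0.0497 and 0.0819. Across alternatives these medians ran from 0.0220 to 0.109 and from -0.0212 to 0.131.

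Of 13 macrophage markers listed, 9 were measured and 8 of these had a change below 0, with a median of -0.289. That median was -0.169 without E11.5 replicate 2, -0.465 without both arrays that stand apart and -0.994 with a stricter filter on dim genes. Tyrobp, an adaptor of myeloid receptors, was the 1 call, where 0.547% of all genes tested were called. It fell by 1.28 ± 0.24 (adjusted p = 0.0079 by limma). Tyrobp was at 4.24, 4.18 and 4.33 and then at 2.75, 2.98 and 3.16, without overlap, and controls fell by 1.32. Without E11.5 replicate 1 (-1.29) or E12.5 replicate 1 (-1.18) the call was lost. The mean signal over the list was 2.73 to 2.82 at E11.5 and 2.24 to 2.61 at E12.5. The part of these cells in other falls, such as that of Ifitm3, was not tested. Supporting, interstitial, endothelial and erythroid lists held 0 calls.

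**Figure D2:**
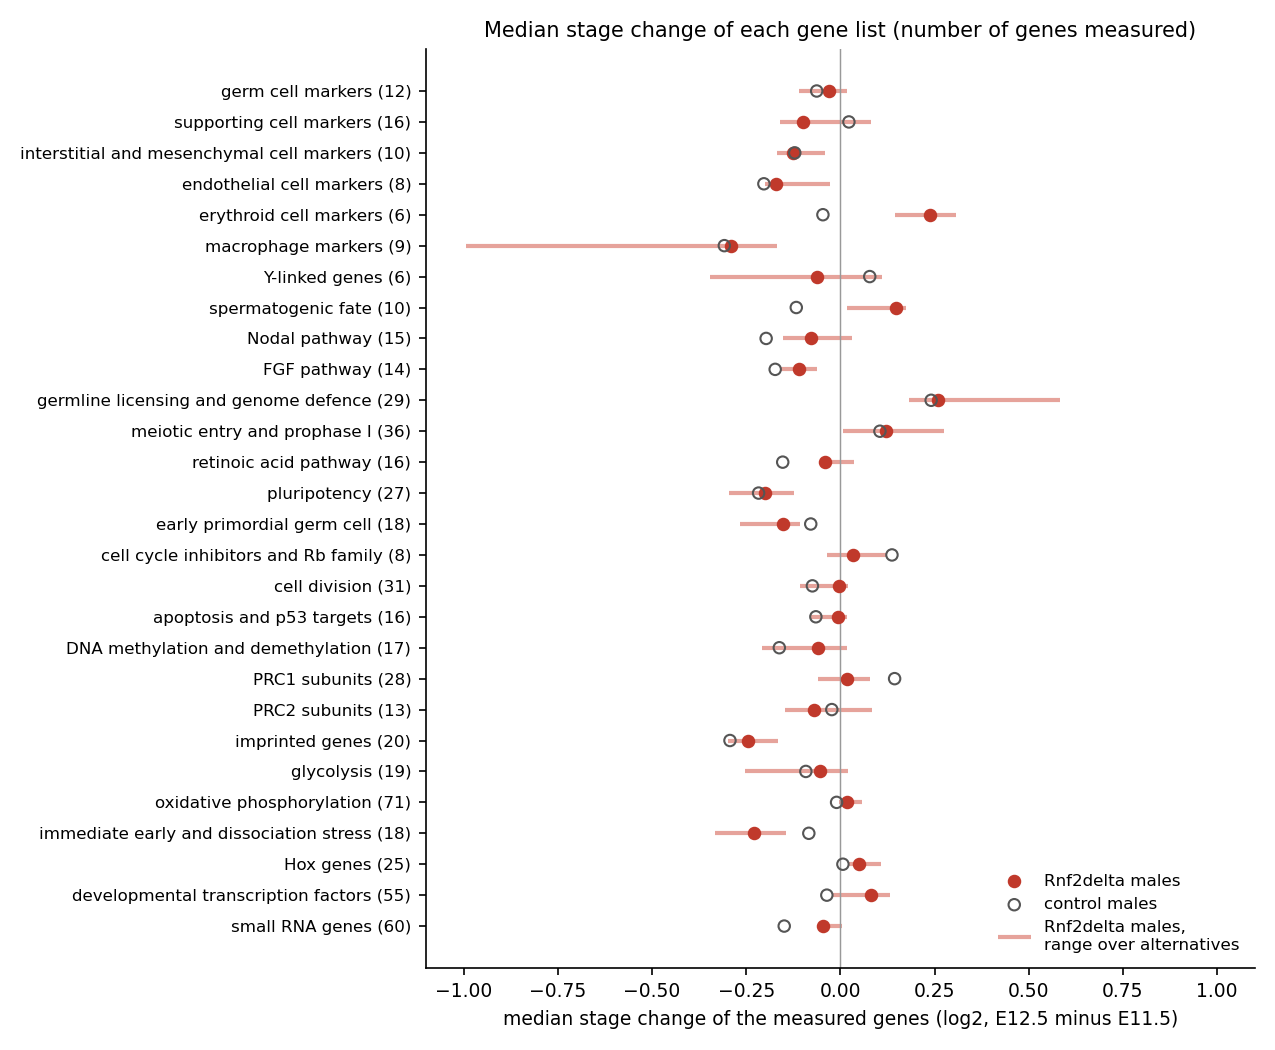
Median change from E11.5 to E12.5 (horizontal axis, log2) of each gene list with at least 6 measured genes, the number measured in brackets. Filled points are Rnf2delta males, open circles control males, and pale bars span the Rnf2delta median over the alternative settings. The licensing list lies at 0.259 and the pluripotency list at -0.200 in Rnf2delta.

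The stage change was then set beside that of control males, from arrays it does not share, to ask whether it differed between the genotypes. Control males had 397 calls (2.62%), 146 up (0.962%) and 251 down (1.65%), or 215 up and 218 down with quantile normalization. Of the 83 Rnf2delta calls 59 were also called in controls, 13 higher and 46 lower in both and 0 in opposite directions. That is 71.1% of the Rnf2delta calls and 14.9% of the control calls. The remaining 24, 10 higher and 14 lower, all had the same sign in controls, and among them were Otx2, Tex19.2, Rnu12, Uqcrh and Atp5o. Across the 15180 genes the changes correlated with a Pearson coefficient of 0.624 and a Spearman coefficient of 0.549, where genes are not independent and both fits share 1 estimate of the spread.

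The difference in stage change between genotypes passed the test for 0 genes (0.0%) by limma, and for 0 in every alternative run. An unadjusted p under 0.05 was met by 361 genes, 2.38% of those tested, and the smallest adjusted p was 1. The median SE of the difference was 0.233, and the central 90% of genes lay between -0.354 and 0.362. So a gene called in 1 genotype alone was not shown to differ between them. Control counts also shifted with single arrays, to 149, 177 and 160 without control E11.5 replicates 1, 2 and 3, and to 184 and 104 without control E12.5 replicates 2 and 3.

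**Figure D3:**
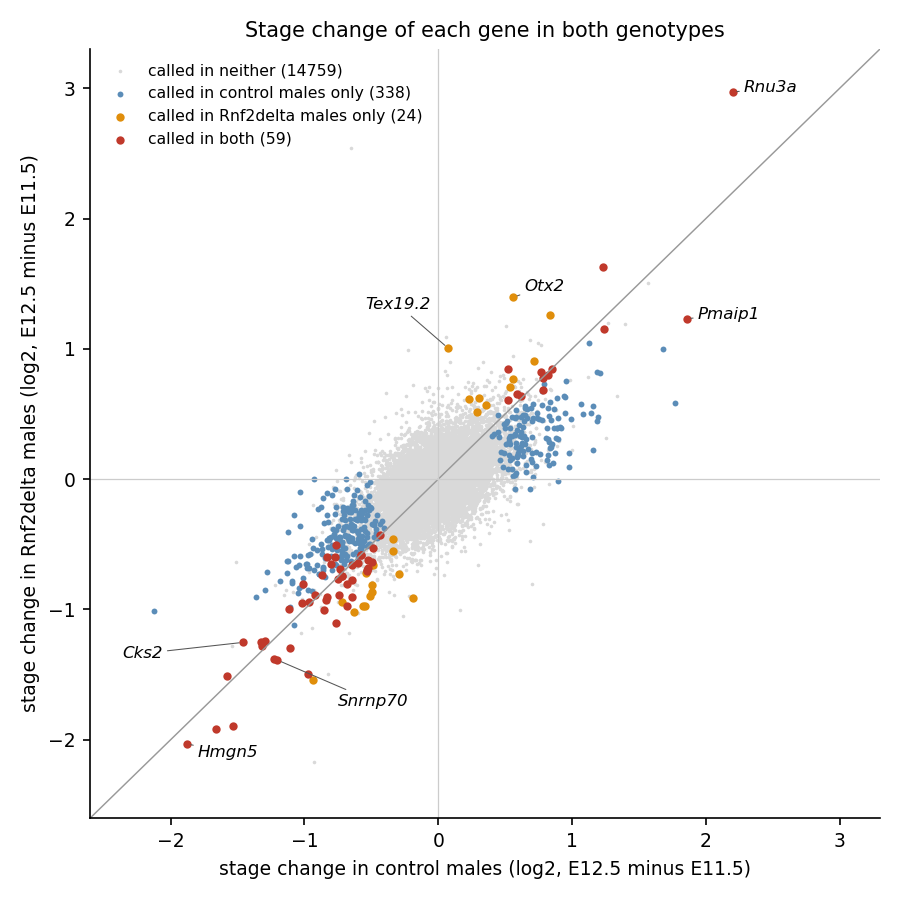
Change from E11.5 to E12.5 of each tested gene in control males (horizontal, log2) and in Rnf2delta males (vertical, log2), with the line of equality. Red marks the 59 genes called in both, orange the 24 called in Rnf2delta alone, blue the 338 called in controls alone. Otx2 and Tex19.2 lie above the line, and the isolated grey point at 2.54 on the vertical axis is Hbb-y.

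Nearly all genes called in control males had the same sign in Rnf2delta males. Of the 146 control risers 143 had a change above 0 in Rnf2delta, with a median of 0.384, and 13 passed. Of the 251 control fallers 249 were below 0, with a median of -0.481, and 46 passed. Over all genes tested 47.3% were above 0, with a median of -0.0133, and 0.152% rose and 0.395% fell past the threshold. The mean signal of the risers was 5.58, 5.52 and 5.88 on the E11.5 Rnf2delta arrays and 6.13, 6.18 and 5.91 on the E12.5 arrays. Replicate 3 of each stage lay towards the other stage, without overlap. For the fallers the means were 5.67, 5.54 and 5.36 at E11.5 and 5.01, 4.98 and 4.99 at E12.5. Since the sets were picked on control arrays, their control values are not a fair scale for size.

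**Figure D4:**
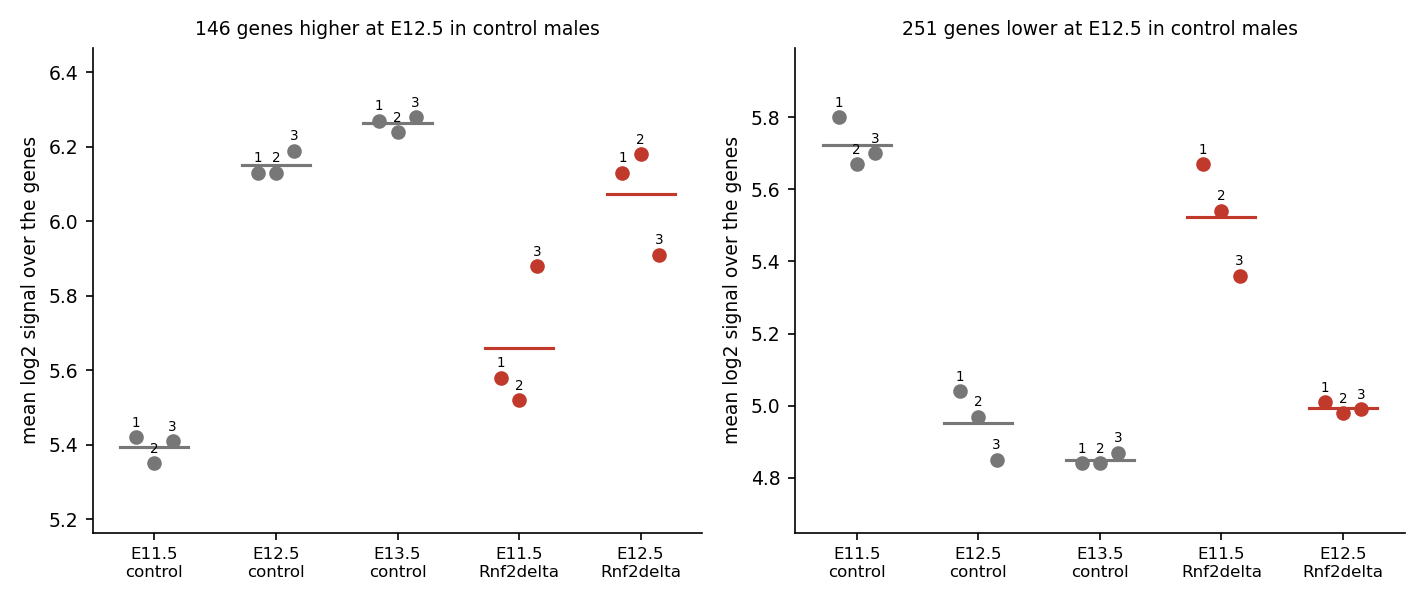
Mean log2 signal on each male array over the genes that rose (left) or fell (right) in control males from E11.5 to E12.5. Numbers are replicates, bars are group means, grey is control and red Rnf2delta; the genes were picked on the grey E11.5 and E12.5 arrays. Rnf2delta E11.5 replicate 3 lies at 5.88 on the left, next to E12.5 replicate 3 at 5.91.

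Genes of the next control step, E12.5 to E13.5, were also followed in the Rnf2delta cells. Controls had 167 calls at that step (1.1%), 115 up (0.758%) and 52 down (0.343%), and 60 without E13.5 replicate 2, 103 without E13.5 replicate 3, and 84, 92 and 104 without E12.5 replicates 1, 2 and 3. In Rnf2delta males between E11.5 and E12.5, 86 of the 115 were above 0 with a median of 0.155, and 4 passed. Of the 52 later fallers 43 were below 0 with a median of -0.393, and 5 passed. Past the threshold were 0.152% of all genes tested upward and 0.395% downward. At the same earlier step in controls the medians were 0.0834 and -0.270, but these share the control E12.5 arrays with the choice of genes.

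The same step was then compared between Rnf2delta males and Rnf2delta females. The difference between the male and the female stage change was past the threshold for 447 genes (2.94%), 264 positive (1.74%) and 183 negative (1.21%). Positive genes went up more, or down less, in males. The matching difference between control males and control females was not tested, so these values are not shown to be particular to the deletion. Leaving out 1 of the 12 arrays gave 226 to 614 calls, the highest without E12.5 female replicate 2 and the lowest without E11.5 female replicate 1. The arrays whose loss moved the count by more than 1.5 times were E11.5 male replicate 3 (291), E11.5 female replicates 1 (226) and 2 (289), E12.5 male replicates 1 (288) and 2 (256), and E12.5 female replicate 1 (227). The E12.5 Rnf2delta female arrays correlated with their own group at 0.974 to 0.978, against 0.983 to 0.990 for the other Rnf2delta arrays.

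Of 36 meiotic genes 13 passed on the negative side and 0 on the positive, against 1.21% and 1.74% of all genes tested. Their median difference was -0.997 against 0.0445 over all genes tested. Stra8 was at 6.5, 5.66 and 4.6 on the E12.5 female arrays and at or below 2.40 on all 6 Rnf2delta male arrays. Its stage change was -0.05 in males and 3.41 in females, a difference of -3.46 (adjusted p = 0.00031 by limma). Meioc, a partner in the meiotic cell cycle, differed by -2.90, Dazl by -1.99, Rec8 by -1.89 and Sycp3 by -1.84. Rb1, the retinoblastoma gene, differed by -1.08 (adjusted p = 0.024).

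In the Nodal list 3 of 15 genes passed on the positive side and 0 on the negative, against 1.74% and 1.21% of all genes tested. Differences lay above 0 for 9 and below 0 for 6, with a median of 0.248. Tdgf1 changed by 0.13 in males and -3.03 in females, a difference of 3.16 (adjusted p = 0.0024 by limma). Lefty1 changed by 1.05 and -1.76 (difference 2.81, adjusted p = 0.0017), and was at 6.56, 6.82 and 6.27 in E12.5 males and 2.35, 2.16 and 2.85 in E12.5 females. Otx2 changed by 1.40 and -0.29 (difference 1.69, adjusted p = 0.0045). Its E12.5 female arrays, at 2.65, 2.65 and 2.51, all lay below the E11.5 male arrays.

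The change had opposite signs in the sexes for Phlda2 and Cks2, in Rnf2delta cells and also between control means. Control Phlda2 means went from 5.59 to 3.93 in males and from 6.40 to 7.35 in females. Those of Cks2 went from 9.52 to 8.06 in males and from 9.04 to 9.69 in females. In Rnf2delta cells Phlda2 changed by -1.92 in males and 1.0 in females (difference -2.91, adjusted p = 0.0046 by limma). The used Cks2 probe set changed by -1.25 and 0.82 (difference -2.07, adjusted p = 4.7e-05). Ndufa8 changed by 0.85 in males and -0.01 in females, a difference of 0.86 (adjusted p = 0.0083).

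**Figure D5:**
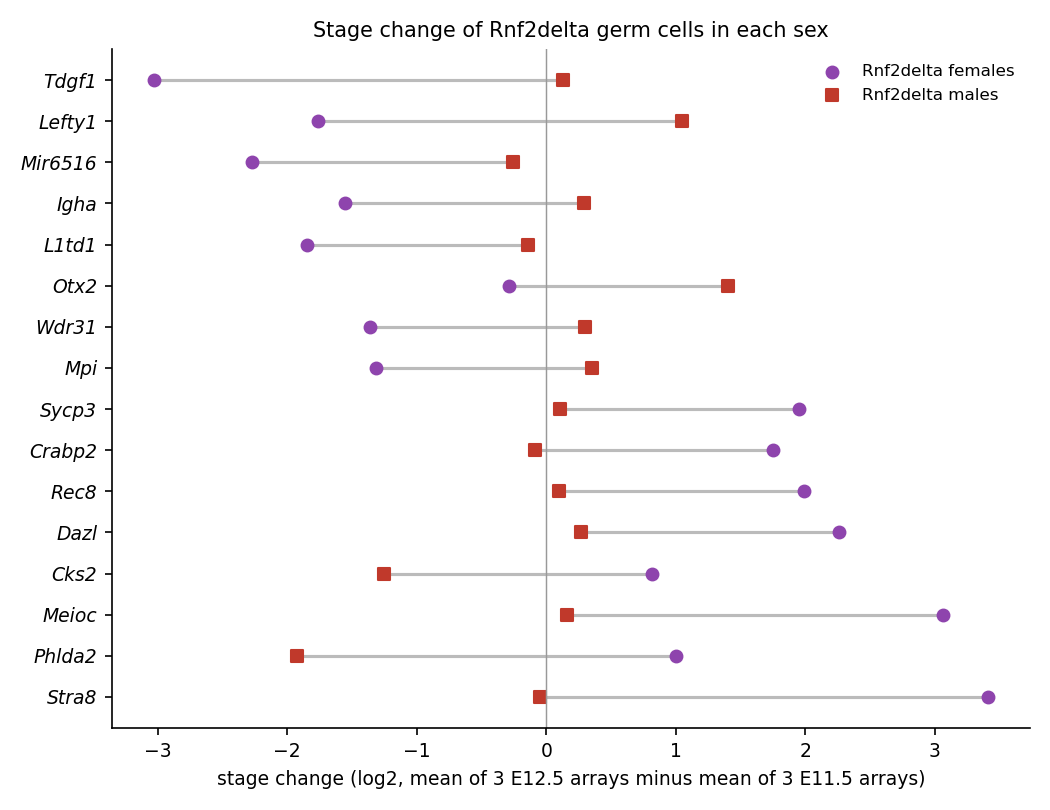
Change from E11.5 to E12.5 (horizontal axis, log2, difference between means of 3 arrays) in Rnf2delta females (circles) and males (squares) for the 8 most positive and 8 most negative named sex differences. Stra8 lies at 3.41 in females and -0.05 in males, and Tdgf1 at -3.03 and 0.13.

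Control germ cells at E13.5 gave the sex bias of each gene on arrays used in neither Rnf2delta change. Of 2471 genes that differed by sex there (16.3%), 1200 were higher in females (7.91%) and 1271 in males (8.37%). Among the female-biased genes 0 rose and 15 fell in Rnf2delta males, with a median of -0.0524, and 97 had a negative and 1 a positive call in the difference between sexes, with a median of -0.310. Among the male-biased genes 6 rose and 9 fell in Rnf2delta males, with a median of 0.0210, and 141 had a positive and 3 a negative call in the difference between sexes, with a median of 0.385. Over all genes tested 0.152% rose and 0.395% fell in Rnf2delta males, with a median of -0.0133. In the difference between sexes 1.74% of all genes had a positive and 1.21% a negative call, with a median of 0.0445.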

How the data were processed

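Affymetrix signals of 30 arrays (10 groups of 3) were used as the log2 values the authors deposited for 34760 probe sets. Array medians lay between 2.52 and 2.66, so the table was already normalized. The submitters' processing notes name R 2.15 and affy 1.36, and no further step is given. The number of arrays limits precision. Symbols were updated by Entrez identifier with RefSeq GRCm38.p6 names: 21640 probe sets had 1 symbol, 1321 several and 11799 none. The brightest probe set stood for a gene. Genes with at least 3 arrays above their array's 40th percentile were tested, 15180 of 19937; Dnmt3l was removed.

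Contrasts came from 1 two-sided limma fit (version 3.58.1, R 4.3.3) that estimated each group's mean on all arrays, Benjamini-Hochberg adjusted over tested genes, threshold 0.05. The fit was tested on simulated data. Members, lists and tests were chosen with earlier results of these data known. Genes named are Rnf2, Ring1, the 12 largest non-overlapping rises and falls past the threshold (at most 3 small RNA genes each way, uncharacterised models left out; a selection is printed), list members by smallest p, a fixed germ cell set and the largest interaction differences. Same-numbered replicates did not pair: their deviations correlated at 0.00364, -0.102 and -0.157. Alternatives covered samples in the fit, weights, normalization, filter, probe choice, replicate block and single arrays. Those with the array split, and without both arrays that stand apart, were added after seeing the data.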

Additional observations from a re-analysis of the deposited data

Results flagged for a closer look

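Of 447 genes that passed, 22 are among the genes named by rule. For these 22 the change from E11.5 to E12.5 in Rnf2delta germ cells differed between males and females by the limma test of the difference itself (adjusted p under 0.05 over all genes tested). Each value is the male minus the female change on the log2 scale. The matching difference in controls was not tested. Lower in males were Stra8 (-3.46), Phlda2 (-2.91), Meioc (-2.90), Cks2 (-2.07), Dazl (-1.99), Rec8 (-1.89), Crabp2 (-1.84), Sycp3 (-1.84), Sycp1 (-1.71), AU015836 (-1.68) and Rb1 (-1.08). Higher in males were Tdgf1 (3.16), Lefty1 (2.81), Mir6516 (2.02), Igha (1.84), L1td1 (1.71), Otx2 (1.69), Mpi (1.66), Wdr31 (1.66), Aldh1a2 (1.52), Ndufa8 (0.86) and Lgalsl (0.69). The pluripotency-linked RNA-binding gene L1td1 stayed between 5.94 and 6.39 on all 6 male arrays and went from 6.25, 6.05 and 6.29 to 3.77, 4.73 and 4.55 in females. Aldh1a2, which makes retinoic acid, overlapped between stages in males (change 0.05) and did not in females (change -1.47). The call was lost in 16 of 24 alternatives for Lgalsl, 10 for Mir6516, 9 for Sycp3 and 8 for Rb1.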

How the results depend on the processing

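The count of 83 for the Rnf2delta male stage change was 13 in a fit of its 2 groups, 302 without the E12.5 females, 443 with array weights, 53 with arrays centred on their median, 250 with the array split as a block in the 4 male groups, 174 without both arrays that stand apart, and 17 to 146 without 1 array. The replicate block gave 102 calls in the compared groups and 83 over all arrays. By sex, 447 calls became 235 in the 4 groups compared, 110 with the replicate block in those 4 groups and 436 with it over all arrays, 258 without both arrays that stand apart, and 226 to 614 without 1 array. By genotype the count was 0 in every setting. The cause of these shifts was not tested. Control males had 563 calls in the 4 male groups, 625 with the replicate block there, 781 in their own 2 groups, 907 without the E12.5 females, 1241 with array weights, 278 and 664 with the array split in all arrays and in the male groups, and 104 to 287 without 1 array. Of 1966 values of 94 named genes in the Rnf2delta male stage change under alternatives, 120 lost and 32 gained a call, and none past the threshold changed sign. Only the 28 named genes past the threshold could lose a call. Of these 28, 3 kept it in every alternative. Among the other calls, Grn, Mfsd13a, ND3 and Mlec also kept it in every alternative.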

Other observations

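The gene with the smallest adjusted p of the Rnf2delta male stage change was ND3, a complex I subunit encoded by mitochondrial DNA, singled out after its values were seen. It was at 11.45, 11.55 and 11.46 at E11.5 and at 10.26, 10.15 and 10.32 at E12.5, a fall of 1.24 ± 0.10 (adjusted p = 7.1e-09 by limma). Control males fell by 1.29, and stayed at 10.29, 10.21 and 10.20 at E13.5. COX2, also mitochondrially encoded, fell by 0.53 (adjusted p = 0.034), and that call was lost without E11.5 replicate 1 (-0.55), E11.5 replicate 3 (-0.43), E12.5 replicate 1 (-0.52) or E12.5 replicate 2 (-0.49). The male minus female difference in stage change was -1.23 for ND3 (adjusted p = 1.1e-05) and -0.70 for COX2 (adjusted p = 0.020). The nuclear-encoded subunits that passed in these males, Ndufa8, Uqcrh and Atp5o, rose. Of all 71 nuclear-encoded genes measured, 40 had a change above 0 and 31 below.

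A few other called genes are given here, singled out after their values were seen and not as a group: H2ax, the histone variant phosphorylated at DNA breaks, Macroh2a1, the variant enriched on the inactive X, and Stag2. H2ax went from 8.19, 7.76 and 7.58 to 6.91, 7.31 and 6.90, a fall of 0.80 (adjusted p = 0.039 by limma), lost without E11.5 replicate 1 (-0.63), E11.5 replicate 2 (-0.84), E12.5 replicate 1 (-0.74) or E12.5 replicate 3 (-0.73). Macroh2a1 went from 8.01, 7.55 and 7.55 to 7.09, 6.93 and 7.11, a fall of 0.66 (adjusted p = 0.047), lost without every array but E11.5 replicate 3, with changes of -0.51 to -0.74. Stag2, a cohesin subunit, went from 2.08, 2.11 and 2.58 to 3.25, 3.11 and 2.7. These are dim signals, near the array medians of 2.52 to 2.66. Its rise of 0.77 (adjusted p = 0.021 by limma) was lost without E11.5 replicate 1 (0.68), E11.5 replicate 2 (0.69), E12.5 replicate 1 (0.65) or E12.5 replicate 2 (0.72). Controls changed in the same direction for all 3, by -0.68, -0.49 and 0.56.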
